A study of Brassica juncea with 4 samples.

Results

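miR390 is the microRNA (miRNA) that starts production of the trans-acting siRNAs (tasiRNAs) of the TAS3 loci. It was followed here in floral buds of *Brassica juncea*, in a cytoplasmic male sterile (CMS) line and in its maintainer fertile (MF) line. All entries of the deposited miRNA table numbered 390 were taken, and entries with the same sequence were joined. This gave 4 of 288 entries and 3 of 248 different sequences. They are the guide, shared by ath-miR390a and ath-miR390b, and the reads from the other arm of each hairpin, ath-MIR390a-p3_1ss5AG and ath-MIR390b-p3.

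The CMS line carries a cytoplasm from *B. rapa*, brought into *B. juncea* by crossing and repeated backcrossing, and the selfed fertile *B. juncea* is its maintainer. All buds of an inflorescence were taken from plants flowering in long days and pooled over several plants. There was 1 small RNA library and 1 degradome library per line. No spread between plants can therefore be given, and every test below compares libraries, not lines. The buds hold many tissues, and in such bulk samples more cells that make a miRNA and more miRNA per cell cannot be told apart. The tables hold no mRNA levels by which the labelled tissue could be checked.

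Plant miRNAs are cut by DICER-LIKE1 from a hairpin as a duplex, of which the guide is loaded into an ARGONAUTE protein while the other arm is mostly degraded. In Arabidopsis, miR390 is loaded into AGO7 and binds a pair of sites in the TAS3 transcripts, of which the site near the 3' end is cleaved. SGS3 and RDR6 then turn the cleaved RNA into double-stranded RNA, and DCL4 with DRB4 cuts it into tasiRNAs. Some of these, the tasiR-ARFs, guide cleavage of the mRNAs of ARF2, ARF3 and ARF4, auxin response factors that repress transcription. ARF3 and ARF4 act in the polarity of leaves and floral organs.

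The 3 sequences are shown because the comparisons rest on telling them apart. They are written 5' to 3' with T for U, and capitals mark bases 2 to 8, the seed.
miR390a and miR390b (guide): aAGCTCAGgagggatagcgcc
MIR390a-p3_1ss5AG (other arm): cGCTGTCCatcctgagtttca
MIR390b-p3 (other arm): tGGCGCTAtccatcctgagtt
All are 21 nt long, and their seeds differ. No other sequence of the table shared any of these seeds (0 for each). The suffix 1ss5AG marks a single base change, A5G, counted from the 5' end of the other arm. The Arabidopsis arm and the *B. juncea* reads are set under each other to show it, with position 5 in capitals.
Arabidopsis other arm: cgctAtccatcctgagtttca
*B. juncea* reads: cgctGtccatcctgagtttca
In the deposited fold this base faces the T at position 15 of the guide, written U in RNA. The Arabidopsis base makes an A:U pair there, and the base of the *B. juncea* reads makes a G:U pair. The guide itself carried no change.

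The hairpins that the authors assigned to these sequences are Arabidopsis loci, with positions in the TAIR10 build. MIR390a lies on the plus strand of chromosome 2 from 16061944 to 16062071, with the guide at 16061971 to 16061991 and the other arm at 16062023 to 16062043. MIR390b lies on the plus strand of chromosome 5 from 23636941 to 23637069, with the guide at 23636961 to 23636981 and the listed other arm at 23637031 to 23637051. Both are given as miRNA hairpins, and no gene annotation around them was used here. The hairpins are shown because the same guide sits in both, and capitals mark the arms.
MIR390a hairpin: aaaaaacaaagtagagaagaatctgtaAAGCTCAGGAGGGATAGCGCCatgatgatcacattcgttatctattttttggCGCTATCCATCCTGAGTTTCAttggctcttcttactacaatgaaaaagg
MIR390b hairpin: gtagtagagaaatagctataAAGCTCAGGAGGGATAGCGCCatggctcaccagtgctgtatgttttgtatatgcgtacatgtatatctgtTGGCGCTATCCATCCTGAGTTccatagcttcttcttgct

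In the deposited fold of MIR390a, 20 of 21 guide bases are paired, 18 of them with the other arm, and 31 bases separate the arms. The base at position 11 of the guide, a G, is unpaired. The duplex of MIR390a leaves 2 bases free at the 3' end of each arm, the form left by DICER-LIKE enzymes. In MIR390b, 19 guide bases are paired, the bases at positions 1 and 11 are not, and 49 bases separate the arms. The listed arms of MIR390b do not form such ends, since the 3' end of each falls 1 base short of the opposite 5' end. The unpaired position 11 is thus common to both folds. The folding energy was -51.9 kcal/mol for MIR390a and -59.8 kcal/mol for MIR390b, with a median of -58.7 over 99 hairpins. The GC content was 38.3% for MIR390a and 44.2% for MIR390b.

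**Figure D1:**
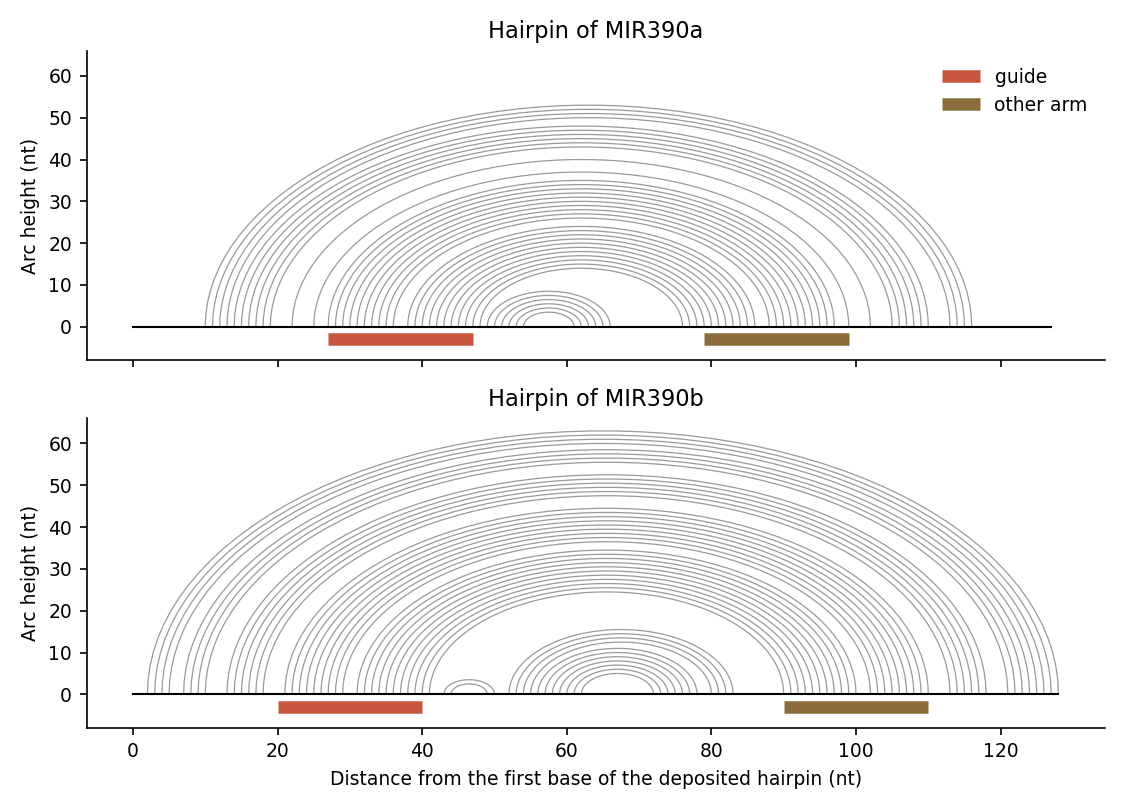
Base pairs of the deposited folds of the MIR390a and MIR390b hairpins. The x axis is the distance in nt from the first base of the deposited hairpin, each arc joins the bases of a pair, the height of an arc is proportional to the distance it spans, and the bars mark the guide and the other arm. The guide lies on the 5' side of both hairpins, with 31 bases between the arms in MIR390a and 49 in MIR390b.

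Reads that carry the guide cannot be divided between these loci. The listed MIR390b-p3 read does not settle it, since it matches the Arabidopsis hairpins of MIR390a and MIR390b alike with 0 mismatches. It begins 3 bases upstream of the abundant form and has the Arabidopsis A at the place of the A5G change, its own position 8. MIR390a-p3_1ss5AG has 1 mismatch to the MIR390a hairpin and 2 to that of MIR390b. *B. juncea* loci were not analysed here, so these names say which Arabidopsis hairpin is nearest and not which *B. juncea* locus was transcribed.

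The MF library held 11845753 raw and 7331757 mappable reads, and the CMS library 3339182 and 3192676. Listed miRNA reads came to 90880 in MF and 105033 in CMS. A single sequence, miR319a, made up 55.7% of them in MF and 70.5% in CMS, so a share of all miRNA reads moves with it. The authors' normalized counts equal raw reads times 0.896 in MF and 1.12 in CMS. The limit set by 0 reads is taken as 3 counts, which is 0.409 in MF and 0.940 in CMS when put per 1000000 mappable reads. Intervals are exact 95% intervals, and they cover counting error only, because there is 1 library per line. They treat each read as an independent molecule, so reads copied by PCR would make them too narrow.

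miR390a was higher in the CMS library. Its raw reads were 323 in MF against 473 in CMS, which the authors normalized to 289 and 527. Per 1000000 mappable reads it was at 44.1 in MF and 148 in CMS. It made up 0.355% of the miRNA reads in MF (0.318 to 0.396%) and 0.450% in CMS (0.411 to 0.493%), and the intervals do not overlap. By reads it was the 19th sequence in MF and the 14th in CMS. The guide was thus among the more abundant sequences of both libraries, where 228 sequences had reads in MF and 173 in CMS. With the authors' factors, the CMS over MF ratio was 1.82 (1.58 to 2.11), or 0.87 on the log2 scale (0.66 to 1.08).

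The other arm of MIR390a was higher in the CMS library too. The raw reads of MIR390a-p3_1ss5AG were 58 in MF against 91 in CMS, normalized to 52 and 102. Per 1000000 mappable reads it was at 7.91 in MF and 28.5 in CMS. It was the 45th sequence in MF and the 30th in CMS. The other arms of Arabidopsis hairpins, with the starred miR3630 and miR168b entries named for other species, came to 69. Arms of other species marked p3 or p5 were left out. Among the 69, MIR390a-p3_1ss5AG stood 10th in MF and 6th in CMS. The ratio was 1.95 (1.39 to 2.76), or 0.97 on the log2 scale (0.48 to 1.47), an interval that holds the ratio of the guide. MIR390b-p3 had 0 reads in MF against 2 in CMS, under the limit in both, and no fold is given for it. It was 2.15% of the other-arm reads in CMS (2 of 93, 0.262 to 7.55%) and 0 of 58 in MF, which allows up to 6.16%.

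**Figure D2:**
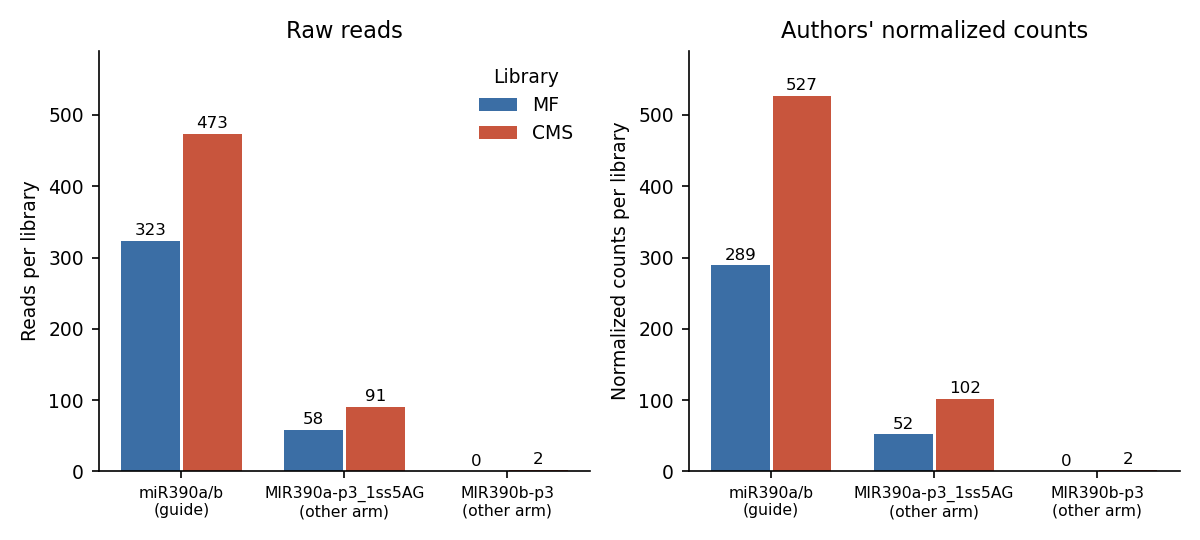
Raw reads and the authors' normalized counts of the 3 miR390 sequences in the MF and CMS libraries, 1 library per line, so no error bars are drawn. The guide stands at 323 and 473 raw reads, the other arm of MIR390a at 58 and 91, and MIR390b-p3 at 0 and 2.

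The libraries were compared with the tests that the study used, Audic-Claverie, Fisher's exact and chi-squared, each at 0.01, with the limit of the first divided by the 248 sequences. The Audic-Claverie value is the probability of the single observed outcome and not of a tail. The tests ran on the normalized counts and not on the raw reads, so their p-values are not exact for the reads counted. A sequence that passed all 3 was called. miR390a passed, where the Audic-Claverie p was 7.4e-18, the two-sided Fisher's exact p was 6.4e-17 and that of chi-squared was 7.9e-17. MIR390a-p3_1ss5AG passed with 8.7e-06, 6.9e-05 and 5.6e-05, but with the two-sided tail of Audic-Claverie (exact p = 6.9e-05) in place of the single outcome it missed the divided limit, while miR390a still passed. MIR390b-p3 did not. With the study's form of the test, 2 of 3 miR390 sequences were called higher in CMS, where 13 of all 248 were, or 5.24%. Among the 88 sequences with at least 20 reads over both libraries, 20, or 22.7%, were at least 1.5-fold higher in CMS, and both miR390 sequences with that many reads were.

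The size of the ratio depends on the scaling, and the call with it. Over 86 sequences with at least 20 reads and reads in each library, the median log2 ratio was -0.03 with the authors' factors, 0.85 per mappable read, 1.48 per raw read and -0.56 per listed miRNA read. The ratio of miR390a was 3.36 per mappable read, 5.19 per raw read, 1.27 per miRNA read and 1.90 per miRNA read without miR319a. Per miRNA read neither sequence was called. miR390a then had a log2 ratio of 0.34 (0.13 to 0.55), and MIR390a-p3_1ss5AG one of 0.44 (-0.05 to 0.94). The place among the other sequences does not depend on scaling. miR390a lay 0.90 above the median of the log2 ratios and MIR390a-p3_1ss5AG 1.0 above it, and 11 of 86 sequences had a larger ratio than miR390a.

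**Figure D3:**
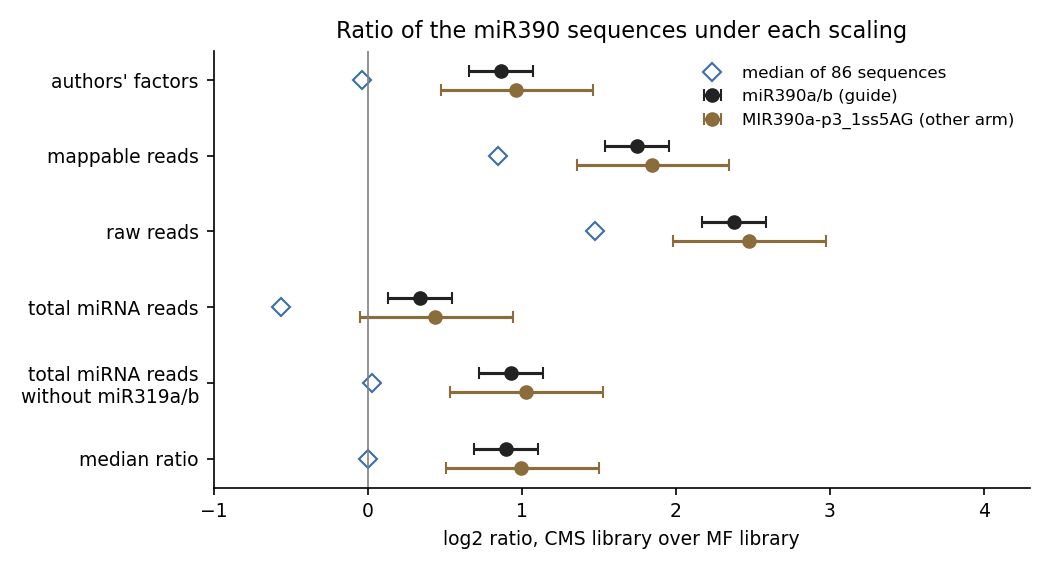
Log2 ratio of CMS over MF for the guide and the MIR390a other arm under 6 scalings, with exact 95% intervals (counting error only), beside the median of 86 sequences as open diamonds. Both miR390 sequences lie 0.90 and 1.0 above the median in every row, while the ratio of the guide itself runs from 0.34 to 2.38.

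Leaving out its own other arm, the sequences with at least 100 reads whose log2 ratio was nearest to that of miR390a, over these 2 libraries only, were miR319a at 0.87, miR164a at 0.90, miR159a at 0.77, MIR166b-p5 at 0.72 and miR408 at 0.66. miR319a targets TCP and miR164a NAC transcription factors, miR159a targets MYB factors of the tapetum, and miR408 targets copper proteins. MIR166b-p5 is the other arm of a miR166 hairpin. For every 1000 reads of miR319a there were 6.39 reads of miR390a in the MF library and 6.39 in CMS, and 1.15 reads of MIR390a-p3_1ss5AG in MF and 1.23 in CMS. Set against the most abundant miRNA of the buds, the guide was therefore at the same level in both libraries, a comparison chosen after the values were seen and given with no test.

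**Figure D4:**
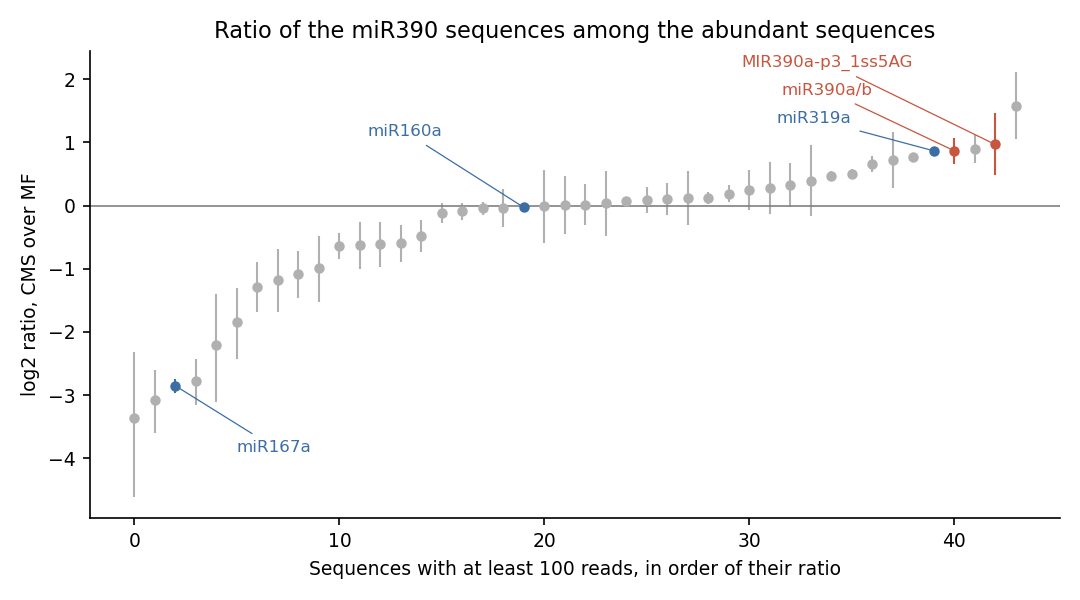
Log2 ratio of CMS over MF, with the authors' factors and exact 95% intervals (counting error only), of the 44 sequences with at least 100 reads over both libraries and reads in each, in order of the ratio. The guide (0.87) and the MIR390a other arm (0.97) stand near the high end beside miR319a (0.87), with miR160a at -0.03 and miR167a at -2.85.

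miR390 was then set against the other miRNAs of the auxin response, in ratios within a library that need no scaling. miR160 targets ARF10, ARF16 and ARF17, miR167 targets ARF6 and ARF8, and miR393 targets the auxin receptors TIR1 and AFB. Reads of miR160a were 4440 in MF against 3493 in CMS, so that there were 7.27 reads of miR390a for every 100 of miR160a in MF and 13.5 in CMS. The odds ratio was 1.86 (1.60 to 2.17, two-sided Fisher's exact p = 1.1e-16, adjusted over the 3 comparisons 1.6e-16). Reads of miR167a were 6967 in MF against 774 in CMS, the opposite direction to the guide. There were 4.64 reads of miR390a for every 100 of miR167a in MF and 61.1 in CMS, an odds ratio of 13.2 (11.2 to 15.5, Fisher's exact p = 1.3e-217, adjusted 3.8e-217). In MF, miR167a outnumbered the guide by far, and in CMS they were of one order.

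miR393a was read 10 times in MF and 7 times in CMS. Against it the odds ratio was 2.09 with an interval from 0.710 to 6.54 (Fisher's exact p = 0.14), too few reads to show a difference of that size. The other arm of MIR167a, MIR167a-p3, was read 634 times in MF and 74 times in CMS. In MF it was the most abundant other arm of the Arabidopsis hairpins and had more reads than the miR390 guide, and in CMS it had fewer than MIR390a-p3_1ss5AG.

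The guide and the other arm were next compared within each library. All guide reads were counted with the other arm of MIR390a, since they cannot be divided between the hairpins. In MF, MIR390a-p3_1ss5AG gave 58 of the 381 reads of guide and other arm, or 15.2% (11.8 to 19.2%). In CMS it was 91 of 564, or 16.1% (13.2 to 19.4%), and 16.4% with MIR390b-p3 added. There were 5.57 guide reads for every other-arm read in MF and 5.20 in CMS. The shares lie within each other's intervals, and the odds ratio was 1.07 (0.738 to 1.56, two-sided Fisher's exact p = 0.72, adjusted 0.89). A change in the odds beyond that interval was not seen, and a smaller one could not be detected with these reads. Of 47 hairpins with both arms listed and at least 20 reads, 9, or 19.1%, changed their share at an adjusted p under 0.05, with 6 higher and 3 lower in CMS. MIR390a was not among them.

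The other-arm share of MIR390a was above that of most hairpins. Of the 29 other hairpins with at least 100 reads, 24 had a lower share over both libraries and 5 a higher one, and their median was 0.893% against 15.8% for MIR390a. These hairpins are not independent, because several share a guide. Each of those was set against all reads of that guide, which lowers its share. With the other arms summed per guide, an alternative chosen after the values were seen, 17 of 21 other guides had a lower share and 4 a higher one. Their median was then 1.82% against 15.9% for miR390a. The nearest hairpins below were MIR171a at 12.4%, MIR396a at 9.46% and MIR164c at 9.09%. All 3 were among the 9 whose share changed, with 15.2% in MF and 9.22% in CMS for MIR171a, 3.77% and 14.7% for MIR396a, and 0.870% and 24.6% for MIR164c. The nearest above were MIR162b at 31.3%, MIR168a at 49.6% and MIR156e at 82.1%. miR162 targets DCL1 and miR168 targets AGO1, genes of the miRNA pathway itself.

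**Figure D5:**
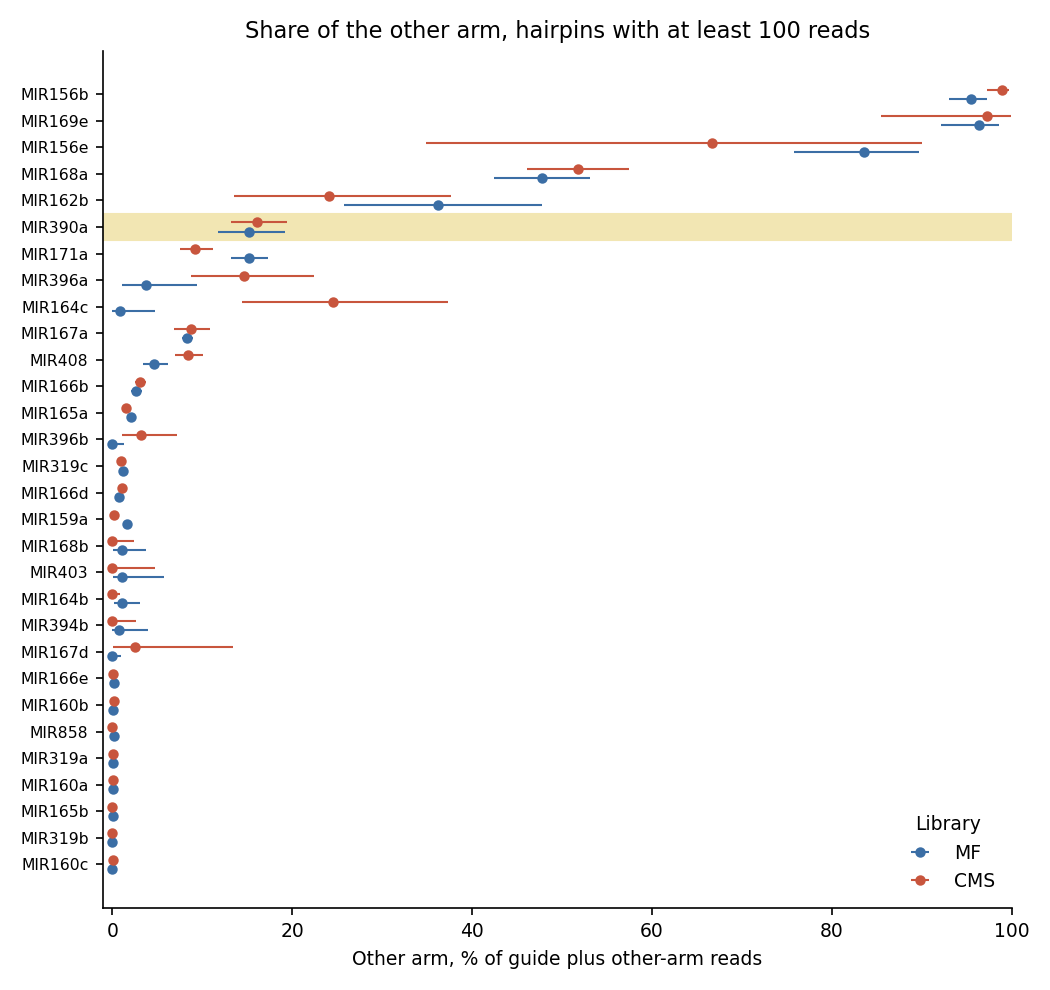
Share of the other arm in the guide plus other-arm reads of each hairpin with at least 100 reads, in percent, for MF and CMS with exact 95% intervals (counting error only), in order of the share over both libraries. MIR390a (shaded) lies at 15.2% in MF and 16.1% in CMS with overlapping intervals, below 5 hairpins and above 24.

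Degradome sequencing reads the 5' ends of cut mRNAs, and the deposited tables list sites that the CleaveLand pipeline matched to a miRNA. The MF degradome had 7717843 mapped reads and the CMS degradome 4967302. The tables held 838 rows for 335 genes in MF and 768 rows for 247 genes in CMS. None of these rows named miR390 or its other arms (0 in MF, 0 in CMS). Most listed sequences had no row, since 64 of 248 had one in MF and 63 of 248 in CMS. Of the 11 pathway genes looked for, TAS3a, TAS3b, TAS3c, AGO7, RDR6, SGS3, DCL4, DRB4, ARF2, ARF3 and ARF4, 0 were listed in either library as a target of any miRNA. In the pathway described above, miR390 itself binds only the TAS3 transcripts, so the lack of the other genes says nothing about miR390. The number of genes searched is not given here, so no share over all genes can be set beside the 0. Rows go down to 1 read. The tables hold only matched sites, so no limit on undetected cleavage can be given, and whether TAS3 transcripts were in the sequences searched was not tested. The tasiRNAs are no miRNAs, and their cleavage of the ARF mRNAs was not analysed here.

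Some sequences more abundant than miR390a had no listed site either. In MF 18 sequences had more reads than miR390a, and 11 of them had cleavage rows, 4 with sites of category 0, the strongest class. In CMS it was 9 of 13, 7 of them with category 0. Those without rows in MF were miR408 and the other arms MIR156b-p3 and MIR167a-p3, with entries named for other species. The latter were peu-MIR2916-p3, peu-MIR2916-p5, bra-MIR1885-p3 and ppt-miR894_R+1. In CMS those without rows were miR408, miR858, bra-MIR1885-p3 and ppt-miR894_R+1. Guides named for Arabidopsis among them were thus only miR408 in MF, and miR408 and miR858 in CMS. The other families of the auxin response did have sites. miR160 had sites in 2 genes in MF and 1 in CMS, all with category 0. miR167 had sites in 2 genes in each, with category 0 in 0 of them in MF and 1 in CMS. miR393, with far fewer reads than miR390a, had sites in 4 genes in each, with category 0 in 3 in MF and 4 in CMS.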

How the data were processed

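Small RNA and degradome libraries of CMS and MF buds were analysed, with 1 library per line and assay and samples grouped by their labels. The authors removed adapters and reads of other lengths, matched reads to miRBase 18.0 and to Arabidopsis hairpins (TAIR10), and deposited raw read counts per mature sequence. Aligner versions are not given in the sources used here. The deposited normalized counts are raw counts times 1 factor per library, rounded to whole numbers, and are treated as a score. The deposited hairpin table gives GC content in percent and, as other values, the folding energy from Mfold. The deposited degradome tables give read counts, a p-value and a category per site from CleaveLand, with reads mapped to Arabidopsis cDNA. A match to Arabidopsis can miss sequences that differ in *B. juncea*, and identical guides carry the same reads at each locus. The authors' log2 ratio columns were not used.

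Entries with 1 sequence were joined. Ratios were formed from raw counts scaled by those factors, with conditional binomial 95% intervals (exact), and shares used Clopper-Pearson intervals. Tests across sequences ran on the normalized counts with equal totals of 1000000. Other-arm shares were compared by Fisher's exact test with Benjamini-Hochberg adjustment over hairpins with at least 20 reads. Sequences named for comparison were miR160a, miR167a, miR393a and miR319a, and the 5 sequences with at least 100 reads nearest in ratio. The 3 hairpins nearest above and below in other-arm share were named too. Of the other arms of miR160a, miR167a, miR393a and miR319a, only MIR167a-p3 is described in the text. The members and lists were chosen with earlier results of these data known. Alternatives were other scalings, tests, thresholds and filters. The scripts were tested on simulated data and ran in Python 3.11.15 with numpy 2.4.6, scipy 1.17.1, pandas 2.3.3 and matplotlib 3.10.9.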

Additional observations from a re-analysis of the deposited data

How the results depend on the processing

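Per listed miRNA read, the log2 ratio of miR390a was 0.34 and that of the MIR390a other arm 0.44, and neither was called; this divisor is 70.5% miR319a in CMS and 55.7% in MF. With the two-sided Audic-Claverie tail the other arm, at 0.97, was not called (exact p = 6.9e-05), and miR390a was. Sequences called higher in CMS were 38 per mappable read, 53 per raw read and 4 per miRNA read, against 13, and those called lower were 8, 6 and 36, against 22. The other scalings, thresholds and filters gave 10 to 18 called higher and 19 to 27 called lower. With MIR390b-p3 added, the odds ratio of the other-arm shares was 1.09 (two-sided Fisher's exact p = 0.65). Chi-squared without it gave p = 0.71, so neither alternative detected a difference. The deposited normalized counts were a further alternative here, and the only one for the odds ratios against miR160a, miR167a and miR393a. Within a library they are raw counts times 1 factor, which cancels apart from rounding, so they could not test these odds ratios. Filters on the degradome rows could not test the absence of miR390 and the pathway genes, since 0 were listed before filtering. No paired analysis was possible because each line has 1 library per assay, and for the same reason no replicate could be left out. Depth limits MIR390b-p3 (2 reads) and the comparison with miR393a (17 reads), and the MF library has 2.30 times the mappable reads of CMS.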

Other observations

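The table also lists miR391, a relative of miR390 in Brassicaceae, picked here by sequence likeness after its values were seen. Its sequence is shown because it was the most like the miR390 guide among the listed sequences.
miR391: ttcgcaggagagatagcgcca
It has the same base as the guide at 16 of 20 aligned positions, and its bases 2 to 8 differ from the miR390 seed. miR391 was read 6 times in MF and 11 times in CMS, a log2 ratio of 1.19 with an interval from -0.37 to 2.91. Its other arm, MIR391-p3, was read 10 times in MF and 20 times in CMS, a log2 ratio of 1.32 (0.15 to 2.57). Neither was called. In both libraries the other arm of this hairpin had more reads than the miR391 sequence. Its share was 62.5% in MF (35.4 to 84.8%) and 64.5% in CMS (45.4 to 80.8%). Both intervals include equal reads of the arms, so an excess of the other arm is not shown. At MIR390a the guide had 5.57 reads in MF and 5.20 in CMS for each other-arm read. The difference between the hairpins was not tested.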
